A study of Mus musculus with 9 samples.

Results

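The interferon receptor chains, STAT factors and IRF factors described here are 9 genes taken by symbol from the table: the receptor genes Ifnar1, Ifnar2, Ifngr1 and Ifngr2, the transcription factor genes Stat2 and Stat3, and the interferon regulatory factor genes Irf1, Irf7 and Irf9. All 9 were among the 9277 genes of the table, and all 9 passed the filter on low values. They were measured by RNA-seq in lung endothelial cells of mice with a cleavage resistant Tie1 (Tie1-CR, 5 libraries) and of wild type mice (Tie1-WT, 4 libraries), to ask how the vascular endothelium differs when Tie1 cannot be cut. Tie1 is an orphan endothelial receptor that modulates angiopoietin signalling, and its extracellular part is shed by proteases during inflammation. Every library name of both genotypes carries PBS, and no label names another treatment. The sources used here do not give strain, age, sex, the number of mice per library, the isolation of the cells or the way the allele was made. The numbers in the library names put all Tie1-WT libraries before those of Tie1-CR, and that order and genotype cannot be told apart.

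Interferons signal through pairs of receptor chains. Type I interferons bind Ifnar1 with Ifnar2, and interferon gamma binds Ifngr1 with Ifngr2. Janus kinases on the chains phosphorylate STAT proteins. STAT2 and IRF9 are parts of a complex called ISGF3, which acts on the interferon stimulated response element, and STAT dimers act on the gamma activated sequence. IRF1 is itself induced by interferon gamma and drives genes of antigen presentation and of the immunity GTPases, while IRF7 amplifies type I interferon production. STAT3 transmits mainly the signals of the IL-6 family of cytokines. Endothelial cells carry both receptor pairs and respond to either class of interferon.

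Values are CPM, each library's reads scaled to the same total, and 38208696 to 54408116 reads were counted per library. Each gene of the set rested on at least 2197 reads in every library, a counting error of at most 2.13%. This error takes reads as independent, which amplified cDNA need not be. The 10 endothelial markers were all measured, with summed levels of 17457.4 to 18259.7 CPM in Tie1-CR and 15867.3 to 17750.7 CPM in Tie1-WT, and only Erg among them was called (lower in Tie1-CR). Of 20 leukocyte markers only Lyz2 and Cd68 were in the table, at a summed 60.2 to 118.1 CPM in Tie1-CR and 30.6 to 76.9 CPM in Tie1-WT; the other 18, Ptprc among them, were not among the genes of the table, and Cd68 was called lower in Tie1-CR. The 9 measured epithelial markers summed to 548.2 to 888.7 CPM in Tie1-CR and 326.5 to 725.6 CPM in Tie1-WT, with Cbr2 and Sftpd called higher in Tie1-CR. The part of these cells in the results was not tested. In bulk RNA, fewer cells of a type and less RNA per cell cannot be told apart.

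None of the 9 genes differed between the genotypes past the threshold (limma, adjusted p below 0.05), where 4.05% of all genes did. At an unadjusted p below 0.05 there were 4 of 9, with Irf1, Irf9 and Stat2 lower and Ifngr1 higher in Tie1-CR, against 22.3% of all genes. Groups without overlap were found for 1 of the 9, Ifngr1, against 10.5% of all genes. The median log2 difference was -0.05 over the set and -0.03 over all genes, and 7 of the 9 were below 0, as were 58.5% of all genes. Regardless of sign, the median difference was 0.07 log2 in the set and 0.09 log2 over all genes.

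**Figure D1:**
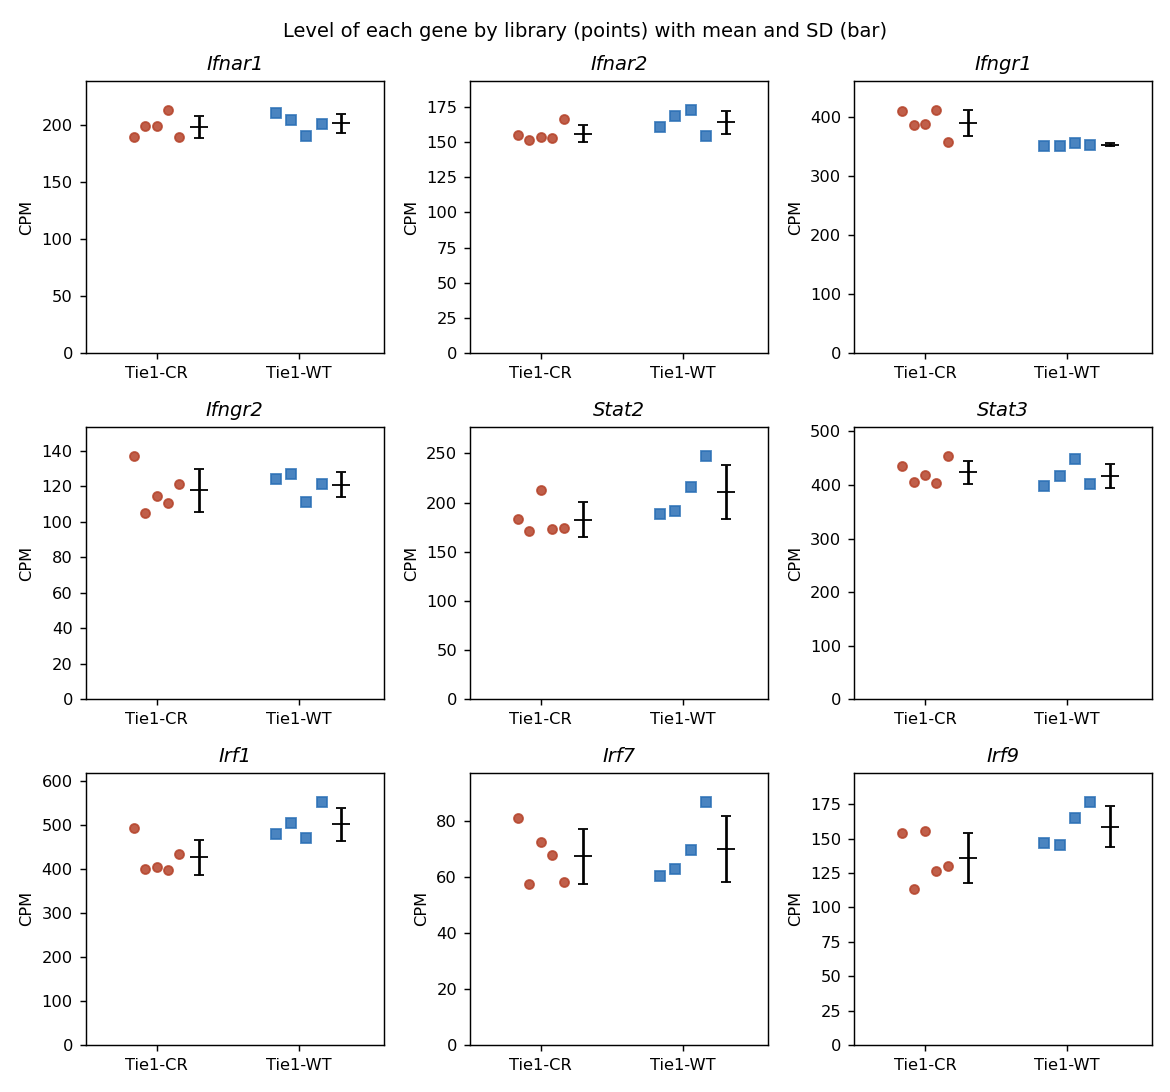
CPM of each of the 9 genes by library, with Tie1-CR (circles, n = 5) left of Tie1-WT (squares, n = 4) and the mean with its SD beside the points. Ifngr1 is the panel whose groups do not overlap, with 356.6 to 411.0 CPM in Tie1-CR and 350.9 to 356.1 CPM in Tie1-WT.

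The promoters of the set were searched for the response elements of the factors they encode, because several of these genes are themselves interferon responsive. RefSeq windows (GRCm38.p6) of 250 bases before to 50 after each annotated start were available for all 9 genes, 11 windows in all. The interferon stimulated response element core, spelled GAAANNGAA and searched on both strands, was present in 1 of the 11 windows, and in 8.56% of the 32851 mouse promoter windows of the RefSeq set, which is not limited to the genes measured here. The gamma activated sequence, spelled TTCNNNGAA, which reads the same on both strands, was present in 3 of the 11, and in 8.30% of those windows. Stretches around the matches are shown 5′ to 3′ on the strand of the gene, with the match in capitals. They come from the windows chr11:53769764-53770063 (plus strand) for Irf1, chr10:128270248-128270547 (plus strand) for Stat2, chr16:91484965-91485264 (plus strand) for Ifnar1 and chr16:91372533-91372832 (plus strand) for Ifnar2.
Irf1: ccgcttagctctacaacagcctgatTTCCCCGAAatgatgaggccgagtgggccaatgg
Stat2: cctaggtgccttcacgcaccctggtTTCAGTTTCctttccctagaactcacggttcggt
Ifnar1: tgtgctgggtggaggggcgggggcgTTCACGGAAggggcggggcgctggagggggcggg
Ifnar2: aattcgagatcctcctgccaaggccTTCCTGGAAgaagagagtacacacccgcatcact
Irf1 holds a gamma activated sequence that begins at position -90 from its start. The match of Stat2 is the response element core read on the opposite strand, from position -221. The gamma activated sequences of Ifnar1 and Ifnar2 begin at positions -5 and -214. The letters alone do not show that a factor binds there, and the other windows, those of Irf7 and Irf9 among them, do not hold these letters. Positions count from RefSeq starts, which can differ from the gene coordinates given below. Both windows of Irf9, from 55603735 and from 55604329, begin after its gene start of 55603571. The bases before that start were therefore not searched.

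Among the receptor genes, Ifngr1, the ligand-binding chain of the interferon gamma receptor (chromosome 10, 19591949 to 19610229, GRCm38), had the smallest p, with higher levels in Tie1-CR. It measured 409.0, 385.5, 387.5, 411.0 and 356.6 CPM in the Tie1-CR libraries, against 351.3, 350.9, 356.1 and 352.2 CPM in the Tie1-WT libraries. All 5 Tie1-CR libraries lay above all 4 of Tie1-WT, though Tie1-CR replicate 5 did so by a margin far below the spread of its own group. The means were 389.9 ± 22.0 CPM in Tie1-CR (SD, n = 5) and 352.6 ± 2.38 CPM in Tie1-WT (SD, n = 4), a difference of 0.14 log2 (SE 0.05, 95% interval 0.03 to 0.25, limma adjusted p = 0.127). The exact permutation p over libraries was 0.0159, two-sided. The SD in Tie1-WT was the smallest of any gene of the set in either genotype, and the counting error of a library for this gene was at most 0.843%.

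Ifngr2, the signalling chain of the same receptor, showed no such difference. Its levels ran from 105.0 to 137.1 CPM in Tie1-CR and from 111.2 to 127.0 CPM in Tie1-WT, so the Tie1-CR libraries enclosed those of Tie1-WT. The log2 difference was -0.04 (95% interval -0.21 to 0.12, limma adjusted p = 0.765). Per base of annotated exon, Ifngr1 stood above Ifngr2 by a ratio of 4.42 ± 0.484 in Tie1-CR (SD, n = 5) and 3.87 ± 0.257 in Tie1-WT (SD, n = 4). These ratios overlapped between the genotypes (exact permutation p = 0.0952, two-sided). Their size rests on the length used. The exons hold 2847 bases for Ifngr1 and 3767 for Ifngr2, and the longest transcripts 2112 and 3708.

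Ifnar1 and Ifnar2, the chains that bind type I interferons, had overlapping levels in the 2 genotypes. Ifnar1, the signalling chain on which Tyk2 sits, measured 197.8 ± 9.63 CPM in Tie1-CR (SD, n = 5) and 201.2 ± 8.27 CPM in Tie1-WT (SD, n = 4). Ifnar2, the chain of higher ligand affinity, measured 155.7 ± 6.00 CPM in Tie1-CR (SD, n = 5) and 163.9 ± 8.09 CPM in Tie1-WT (SD, n = 4). Their log2 differences were -0.02 (95% interval -0.14 to 0.09) and -0.07 (95% interval -0.18 to 0.03), with limma adjusted p of 0.806 and 0.399. Given the spread of these libraries, both 95% intervals lay within 0.2 log2 of 0 in either direction. The ratio of Ifnar1 to Ifnar2 per base of exon was 0.713 ± 0.0536 in Tie1-CR and 0.690 ± 0.0533 in Tie1-WT (exact permutation p = 0.532, two-sided). The exons used hold 5940 bases for Ifnar1 and 3329 for Ifnar2, and the longest transcripts 3909 and 3047. The size of this ratio therefore rests on the length used, and would lie nearer to 1 with the longest transcripts. Mouse Ifnar2, Ifnar1 and Ifngr2 are neighbours within 193 kb of chromosome 16 (91372783 to 91565623, GRCm38), together with Il10rb, the shared chain of the IL-10 receptor. Il10rb, named after its values were seen, measured 78.2 ± 4.29 CPM in Tie1-CR and 74.6 ± 4.99 CPM in Tie1-WT.

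Among the STAT genes, Stat2, the subunit of ISGF3 that carries its activation domain (chromosome 10, 128270559 to 128292849, GRCm38), lay lower in Tie1-CR in most libraries. It measured 183.1, 170.7, 212.9, 172.9 and 173.8 CPM in Tie1-CR, against 188.4, 190.9, 215.3 and 247.3 CPM in Tie1-WT. Tie1-CR replicate 3 reached into the range of Tie1-WT, and the other 4 lay below it. The means were 182.7 ± 17.6 CPM in Tie1-CR (SD, n = 5) and 210.5 ± 27.4 CPM in Tie1-WT (SD, n = 4), a difference of -0.20 log2 (SE 0.09, 95% interval -0.40 to -0.00, limma adjusted p = 0.218). The exact permutation p of Stat2 was 0.103, two-sided. Without Tie1-WT replicate 4, its highest library, the difference was -0.12 log2.

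Stat3, the factor of IL-6 family signalling (chromosome 11, 100885098 to 100939540, GRCm38), had a difference near 0. Its libraries ran from 403.8 to 454.1 CPM in Tie1-CR and from 397.4 to 448.7 CPM in Tie1-WT, ranges that nearly coincide. The log2 difference was 0.02 with a 95% interval of -0.10 to 0.15 (limma adjusted p = 0.826).

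Irf1 had the smallest p of the set (chromosome 11, 53770014 to 53778374, GRCm38). Its levels were 493.8, 400.6, 405.2, 398.3 and 434.1 CPM in Tie1-CR, against 478.2, 504.7, 469.4 and 552.5 CPM in Tie1-WT. In Tie1-CR, 4 of 5 libraries lay below every Tie1-WT library, and replicate 1 lay among them. The means were 426.4 ± 40.4 CPM in Tie1-CR (SD, n = 5) and 501.2 ± 37.4 CPM in Tie1-WT (SD, n = 4), a difference of -0.23 log2 or a ratio of 0.85 (SE 0.07 log2, 95% interval -0.40 to -0.07, limma adjusted p = 0.0967). Its exact permutation p was 0.0317, two-sided, and by limma p it ranked 870 among the 9277 genes. Its promoter holds the gamma activated sequence shown above. Without Tie1-CR replicate 1 Irf1 passed, at -0.29 log2 (limma adjusted p = 0.0338), and over the other alternatives its adjusted p ran from 0.0535 to 0.265.

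Irf9, the DNA-binding subunit of ISGF3 (chromosome 14, 55603571 to 55610030, GRCm38), showed a difference of similar size with wider spread. It measured 154.5, 113.5, 155.3, 126.2 and 130.1 CPM in Tie1-CR, against 147.0, 145.7, 165.4 and 176.9 CPM in Tie1-WT. Replicates 1 and 3 of Tie1-CR lay within the Tie1-WT range. The log2 difference was -0.23 (SE 0.10, 95% interval -0.44 to -0.01, limma adjusted p = 0.195). Its exact permutation p was 0.0952, two-sided. Of the annotated exon bases of Irf9, 2.28% are shared with Rnf31 on the same strand, so some reads cannot be assigned to either gene with certainty. Exon overlaps of the other genes were 9.46% for Ifnar2 with Gm21970 on the same strand, and on the opposite strand 3.40% for Irf1 with Gm17334, 1.19% for Irf7 with Phrf1 and 0.756% for Stat3 with Stat5a.

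Irf7, the regulator that amplifies type I interferon (chromosome 7, 141262706 to 141266481, GRCm38), had the lowest levels of the set and no clear difference. It measured 80.8, 57.5, 72.4, 67.8 and 58.2 CPM in Tie1-CR, against 60.4, 62.8, 69.6 and 86.7 CPM in Tie1-WT. The highest library was in Tie1-WT and the lowest in Tie1-CR, and the groups overlapped almost fully. The log2 difference was -0.05, with a 95% interval of -0.31 to 0.21 that leaves room for a change of either sign (limma adjusted p = 0.839).

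**Figure D2:**
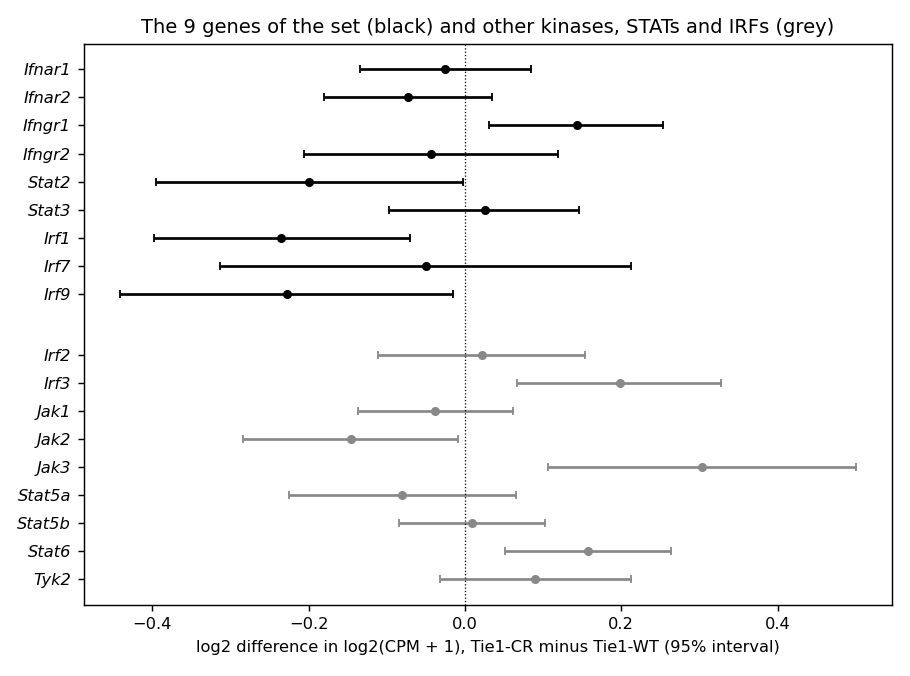
Log2 differences in log2(CPM + 1), Tie1-CR minus Tie1-WT, with 95% intervals from limma, for the 9 genes of the set (black) and 9 other Janus kinases, STATs and IRFs (grey). Irf1, Irf9, Stat2 and Ifngr1 are the genes of the set with intervals that leave out 0, and no gene shown passed after adjustment over all genes.

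Levels between genes were compared per kilobase of annotated exon. Ifngr1 and Irf1 stood highest, at 137.0 ± 7.74 and 107.0 ± 10.1 (SD, n = 5) CPM per kilobase in Tie1-CR, and at 124.0 ± 0.836 and 126.0 ± 9.40 CPM per kilobase in Tie1-WT. In Tie1-WT those 2 levels lay within their spread of each other. Next came Ifnar2 and Stat3, at 46.8 ± 1.80 and 44.5 ± 2.24 CPM per kilobase in Tie1-CR and 49.2 ± 2.43 and 43.7 ± 2.42 CPM per kilobase in Tie1-WT. Ifnar1, Ifngr2 and Stat2 were lower, between 30.8 and 33.3 CPM per kilobase in Tie1-CR and between 32.1 and 35.5 CPM per kilobase in Tie1-WT, and their levels lay within the spread of one another. Irf9 followed, at 25.2 ± 3.42 CPM per kilobase in Tie1-CR and 29.5 ± 2.80 CPM per kilobase in Tie1-WT. Irf7 was lowest, at 17.8 ± 2.60 CPM per kilobase in Tie1-CR and 18.5 ± 3.14 in Tie1-WT. With the longest transcript in place of all exons, Irf1 stood above Ifngr1, Stat3 above Ifnar2 and Irf9 above Ifngr2, so the order of these pairs rests on the length used.

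Stat2, Irf9 and Irf7 varied together from library to library. After each genotype's mean was subtracted, Pearson's r over the 9 libraries was 0.82 between Stat2 and Irf9, 0.86 between Irf9 and Irf7 and 0.78 between Stat2 and Irf7. Without Tie1-WT replicate 4, the library highest in all 4 of Stat2, Irf1, Irf7 and Irf9, these values were 0.81, 0.86 and 0.61. Tie1-CR replicate 2 was lowest in 3 of these 4, and Irf1 was lowest in Tie1-CR replicate 4. Within the set, the highest r of Irf1 was 0.80 with Ifngr2, and 0.93 without Tie1-WT replicate 4. Irf1 had an r of 0.64 with Irf7, 0.55 with Irf9 and 0.29 with Stat2, and without Tie1-WT replicate 4 these were 0.47, 0.43 and -0.10. Stat3 had an r of 0.05 with Stat2, 0.86 with Ifnar2 and -0.86 with Ifnar1, and without that library these were 0.33, 0.90 and -0.90. The points of each r share library and depth, and the values are descriptions.

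**Figure D3:**
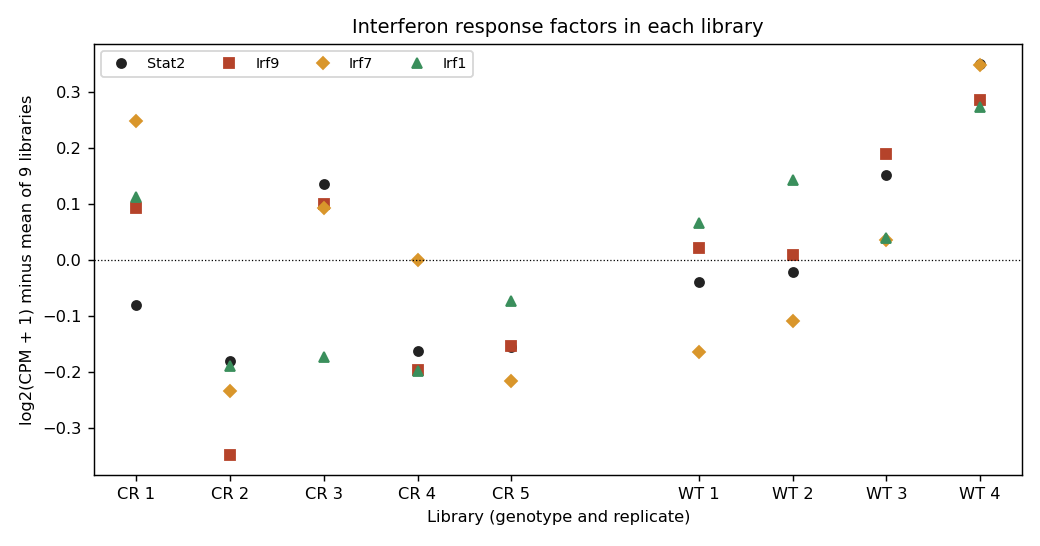
Level of Stat2, Irf9, Irf7 and Irf1 in each library as log2(CPM + 1) minus the mean of the 9 libraries, with Tie1-CR on the left and Tie1-WT on the right. All 4 genes are highest in Tie1-WT replicate 4, and 3 of the 4 are lowest in Tie1-CR replicate 2.

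Genes most like a given factor in this library-to-library variation were sought over the whole table. For Stat2 they were the immunity GTPase gene Tgtp2 (r = 0.96), Rnf213, which encodes a large ubiquitin ligase (r = 0.96), and Kdelc2 (r = 0.95). For Irf9 they were the interferon-induced Ifi44 (r = 0.97), the class I gene H2-T23 (r = 0.96) and Tram1 (r = 0.96). For Irf7 they were Enpp2, the gene of autotaxin (r = 0.98), the interferon-induced isopeptidase Usp18 (r = 0.95) and Rnf31 (r = 0.95). For Irf1 they were Hmgn1, Atp5c1 and Nmi, a partner of STAT proteins (r = 0.97 each). For Ifngr1 they were Dnal4 (r = 0.93), Tmub2 (r = 0.93) and Armcx2 (r = 0.91). For Ifngr2 they were Bpnt1 (r = 0.96), Pqbp1 (r = 0.94) and Vamp3 (r = 0.94). For Ifnar1 they included D8Ertd82e and Ddx26b (r = 0.96 each). For Ifnar2 they were the kinesin gene Kif5b (r = 0.96), the topoisomerase gene Top1 (r = 0.96) and 1700017B05Rik (r = 0.95). For Stat3 they were Atf1, Ubap1 and Gpat4 (r = 0.97 each). Each was picked as the highest r of all genes over 9 libraries.

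Of 9 other Janus kinases, STATs and IRFs, 0 rose and 0 fell (limma, adjusted p below 0.05), where 4.05% of all genes were called. At an unadjusted limma p below 0.05 there were 4 of 9, 3 higher and 1 lower in Tie1-CR, against 22.3% of all genes. Groups without overlap were found for 2 of the 9, against 10.5% of all genes. Jak1, the kinase shared by both interferon receptors, measured 461.7 ± 16.9 CPM in Tie1-CR (SD, n = 5) and 473.8 ± 3.71 CPM in Tie1-WT (SD, n = 4). Jak3, the kinase of the common gamma chain, measured 411.6 ± 47.8 CPM in Tie1-CR and 332.7 ± 30.4 CPM in Tie1-WT, 0.30 log2 (limma adjusted p = 0.0784). Irf3, which responds to nucleic acid sensors, measured 142.9 ± 11.6 CPM in Tie1-CR and 124.2 ± 2.92 CPM in Tie1-WT, without overlap, 0.20 log2 (limma adjusted p = 0.0818).

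Receptors of the same cytokine class and of the STAT3 pathway gave 0 calls among 11 measured genes, where 4.05% of all genes were called. Of these 11, 0 had an unadjusted p below 0.05 (limma), against 22.3% of all genes, and their median was 0.02 log2. Il6st, the signalling chain of the IL-6 family, measured 1251 ± 95.1 CPM in Tie1-CR and 1200 ± 153 CPM in Tie1-WT. Lifr, the receptor of leukaemia inhibitory factor, measured 354.5 ± 26.7 CPM in Tie1-CR and 378.0 ± 19.8 CPM in Tie1-WT, and Il4ra, the IL-4 receptor chain, 643.8 ± 67.1 CPM in Tie1-CR and 594.7 ± 67.4 CPM in Tie1-WT. Sensors and adaptors that activate IRF3 and IRF7 gave 0 calls among 21, where 4.05% of all genes were called. At an unadjusted p below 0.05 (limma) there were 4 of 21, 3 lower and 1 higher, against 22.3% of all genes. Their kinase Tbk1 measured 103.8 ± 7.82 CPM in Tie1-CR and 118.3 ± 6.35 CPM in Tie1-WT (limma adjusted p = 0.108). Ripk1, a kinase of inflammatory and cell death signalling, measured 59.9 ± 3.17 CPM in Tie1-CR and 69.1 ± 4.80 CPM in Tie1-WT (limma adjusted p = 0.0735). Ikbkb, an IκB kinase gene, measured 169.8 ± 7.57 CPM in Tie1-CR and 172.8 ± 5.40 CPM in Tie1-WT, and Tbkbp1, a TBK1 adaptor gene, 151.4 ± 14.2 CPM in Tie1-CR and 142.5 ± 6.33 CPM in Tie1-WT.

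Downstream of the set, the calls lay among inhibitors and targets, and all were falls. The lists were drawn up with earlier results of these data known, so their shares of calls are descriptions. They share genes, Socs1 and Socs3 among them. Of 16 measured inhibitors of JAK-STAT signalling, 3 fell and 0 rose (18.8%, against 4.05% of all genes), with a list median of -0.10 log2. Socs1, which blocks the kinases of the interferon receptors, fell to 27.1 ± 1.45 CPM in Tie1-CR (SD, n = 5), against 58.2 ± 5.54 CPM in Tie1-WT (SD, n = 4). Socs3, which blocks signalling through the IL-6 family chain, fell to 445.9 ± 98.4 CPM in Tie1-CR, against 699.9 ± 37.4 CPM in Tie1-WT. Ptpn11, a tyrosine phosphatase of cytokine and growth factor receptors, fell to 43.4 ± 3.44 CPM in Tie1-CR, against 55.2 ± 3.82 CPM in Tie1-WT. The limma adjusted p was 3.6e-05, 0.0241 and 0.0225. The Socs3 and Ptpn11 calls ended when replicate 1, 2 or 3 of Tie1-WT was left out, and that of Socs3 also when replicate 4 of Tie1-CR was.

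Targets of IRF1 and interferon gamma had 30 of 31 measured genes below 0 and a median of -0.40 log2, with 7 falls and 0 rises (22.6%), where 58.5% of all genes were below 0 and 4.05% were called. Below 0 were 27 of 31 with TMM scaling and 25 without Tie1-WT replicate 4. The genes of a list share libraries, so such counts are not counts of independent results. Averaged over the list, log2(CPM + 1) minus each gene's mean of the 9 libraries ran from -0.452 to 0.075 in Tie1-CR. In Tie1-WT this average ran from 0.024 to 0.527, so the genotypes overlapped. The falls were Socs1 and the GTPase genes Iigp1, Gbp3, Gbp4, Gbp6, Irgm1 and Tgtp2, whose multigene families make their counts uncertain. Iigp1 fell to 103.7 ± 24.8 CPM in Tie1-CR (SD, n = 5), against 238.9 ± 40.2 CPM in Tie1-WT (SD, n = 4). Gbp4 fell to 164.1 ± 49.8 CPM in Tie1-CR, against 328.2 ± 89.9 CPM in Tie1-WT, and Irgm1 to 104.0 ± 19.5 CPM in Tie1-CR, against 167.2 ± 34.9 CPM in Tie1-WT. The limma adjusted p of Iigp1, Gbp4 and Irgm1 was 0.00399, 0.0254 and 0.029. The number of falls was 15 with replicate 3 of Tie1-CR left out. It was 4 when the library left out was Tie1-CR 1, Tie1-CR 2, Tie1-WT 2 or Tie1-WT 4, it was 3 for Tie1-CR 5, and it was 2 for Tie1-CR 4, Tie1-WT 1 or Tie1-WT 3. Socs1 and Iigp1 passed in each of these fits. The Gbp4 call ended with Tie1-CR 4, Tie1-WT 1 or Tie1-WT 3 left out, and that of Irgm1 also with Tie1-CR 5 or Tie1-WT 2. Among these fits Gbp3 passed in 2, and Gbp6 and Tgtp2 passed in 1 each. The groups overlapped for Gbp3, Gbp4 and Gbp6.

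Targets of ISGF3 had 36 of 38 measured genes below 0 and a median of -0.22 log2, with 3 falls and 0 rises (7.89%), where 58.5% of all genes were below 0 and 4.05% were called. Below 0 were 34 of 38 with TMM scaling and 33 without Tie1-WT replicate 4. The library average over this list ran from -0.289 to 0.032 in Tie1-CR and from -0.035 to 0.324 in Tie1-WT, so the genotypes overlapped. Eif2ak2, the kinase PKR that senses double-stranded RNA, fell to 21.8 ± 1.77 CPM in Tie1-CR, against 29.4 ± 2.58 CPM in Tie1-WT. Sp100, a nuclear body protein gene, and Samhd1, a nucleotide hydrolase gene, fell by 0.28 and 0.24 log2. Their limma adjusted p was 0.0144, 0.0409 and 0.0438. The Samhd1 call ended with any 1 library left out, and that of Sp100 with any but Tie1-CR 1 or Tie1-CR 3. The number of falls was 0 with Tie1-WT 1 left out (limma, 3 with all libraries), 4 with Tie1-CR 3, 3 with Tie1-CR 1, and 1 for each of the other 6 libraries. Without Tie1-WT replicate 4, the medians of the interferon gamma and ISGF3 lists were -0.30 and -0.15 log2.

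Targets of STAT3 split, with 12 of 22 below 0 and a median of -0.00 log2 (0.02 with TMM scaling and 0.00 with quantile normalization). There were 4 falls and 0 rises (18.2%), where 58.5% of all genes were below 0 and 4.05% were called. The falls were Fos, Junb, Zfp36 and Socs3, which are also early response genes of many stimuli. Fos fell to 818.4 ± 176 CPM in Tie1-CR (SD, n = 5), against 1745 ± 287 CPM in Tie1-WT (SD, n = 4). Junb and Zfp36 fell by 0.80 and 0.84 log2 (limma adjusted p = 0.0077 and 0.00485).

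**Figure D4:**
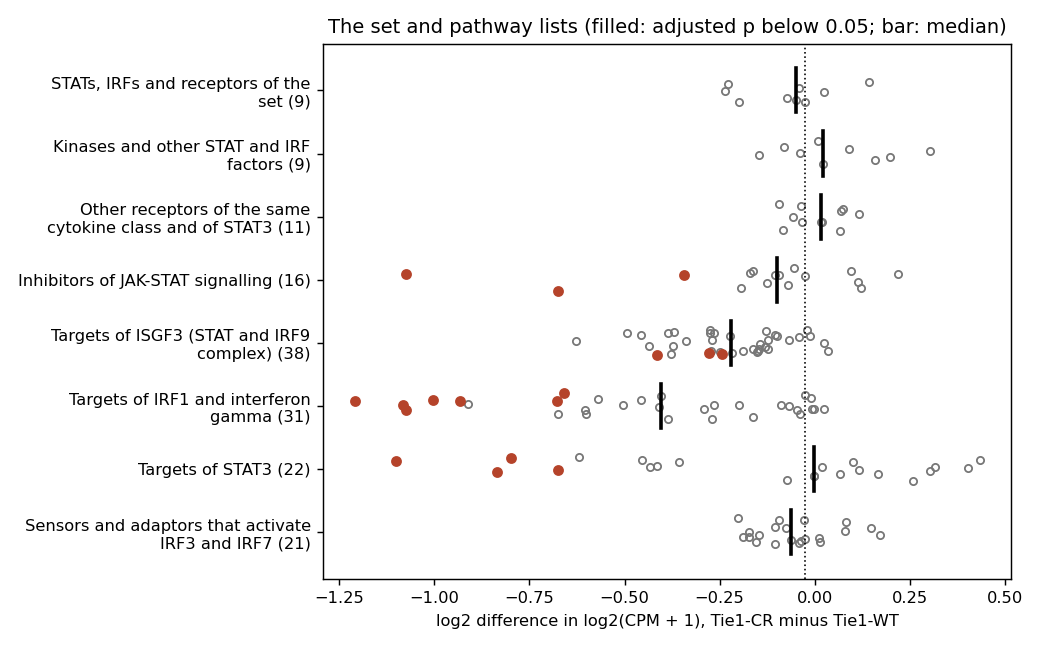
Log2 differences, Tie1-CR minus Tie1-WT, of the 9 genes of the set and of each pathway list, with the number of measured genes in brackets, filled points for adjusted p below 0.05, a bar at each median and a dotted line at the median of all genes. The set has 0 filled points and a median of -0.05, while targets of IRF1 and interferon gamma have 7 filled points and a median of -0.40.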

How the data were processed

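RNA was measured in lung endothelial cells of 5 Tie1-CR and 4 Tie1-WT libraries, made with a PicoPure extraction and the SMARTer Ultra Low kit per the labels' protocols. STAR 2.7 and the builds GRCm38.p6 and mm10 are named per the submitters' processing notes. The sources used here do not give the counter, annotation or gene filter. The authors deposited 1 table, named as TPM, whose values are CPM: in every library 100% are whole multiples of 1 step within 0.01 reads. The step gave 38208696 to 54408116 counted reads per library, 98.3% to 98.6% of them in the table. Each gene reaches at least 10.0 CPM in some library.

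Values were used as log2(CPM + 1), which understates changes of low genes, after a filter (1 CPM or more in 4 or more libraries) that removed no gene. All genes were fitted together with limma 3.58.1 in R 4.3.3 (trended empirical Bayes, two-sided, Benjamini-Hochberg over 9277 genes, threshold 0.05), a test planned for TPM and kept for CPM. The fit was tested on simulated data. Single values were tested by two-sided exact permutation over the 126 assignments of the genotype labels. Genome positions and exon lengths came from GENCODE M21 (GRCm38), which matched 97.5% of symbols. Strand was not stated, so overlapping genes share reads. Plots used matplotlib 3.10.9 in Python 3.11.15.

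The members and lists were chosen with earlier results of these data known. From each list, up to 4 genes past the threshold are named by adjusted p, or, where none passed, the 2 highest and the 2 with the smallest p. For likeness, the 3 genes of highest Pearson r, each genotype's mean subtracted, are named per member. A factor of the kinase list and a gene chosen for likeness are not reported here. The labels do not say that libraries came from separate mice, so the p-values reflect only sample spread, which may be technical. Every pair of libraries differed beyond counting error (lowest chi-square per degree of freedom 21.4). Alternatives covered pseudocounts, filters, scaling, variance models, an exact Wilcoxon test, a replicate block, a looser threshold and each library left out.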

Additional observations from a re-analysis of the deposited data

Results flagged for a closer look

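Among 62 groups of libraries of the 31 genes tested, 4 held an end value set apart from the others relative to the group's range. The gap to the nearest library had to exceed 0.829 of the range for 4 libraries and 0.71 for 5, whatever its size in CPM. Chance alone gives about 1 in 20, and 4 of 62 is near that share. Ifnar2 in Tie1-CR replicate 5, at 166.2 CPM, stood above the other Tie1-CR libraries, which ran from 151.3 to 154.7 CPM. Jak1 in Tie1-WT replicate 1, at 479.3 CPM, stood above the other Tie1-WT libraries, from 471.6 to 472.6 CPM. Tie1-WT replicate 4 stood above the rest of its genotype for Irgm1, at 219.3 CPM against 147.0 to 155.4 CPM, and for Sp100, at 185.5 CPM against 167.3 to 169.6 CPM. The same library was highest for Stat2, Irf1, Irf7 and Irf9.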

How the results depend on the processing

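With all libraries, 4 of the 9 genes had an unadjusted limma p below 0.05 and 1 an unadjusted exact Wilcoxon p below 0.05. After adjustment 0 passed in every alternative run over all libraries, except that a threshold of 0.10 gave 1, Irf1. The replicate block, which left out Tie1-CR replicate 5, also gave 0. With each library left out the count was 0 to 1. Over those fits Irf1 ran from -0.29 to -0.19 log2, Irf7 from -0.118 to 0.057 and Stat3 from -0.00075 to 0.061, so the signs of Irf7 and Stat3 were not stable. The other 7 genes kept their direction in all 19 alternatives, some of which could not change it. The Wilcoxon test has no difference of its own, and the filters and the robust variance model leave each difference as it was. Nearest to 0 in any alternative, Ifnar1 was at -0.0012 log2 and Ifngr2 at -0.004 log2. With the replicate block Stat3 was at -0.00075 log2, the same value as without Tie1-CR replicate 5, which the block also lacked. Over all genes, 376 passed, 119 higher and 257 lower. The split was 182 and 194 with TMM scaling and 183 and 190 with quantile normalization. The count was 661 with library weights, 182 with the replicate block, 906 at a threshold of 0.10 and 60 to 355 with a library left out. The exact Wilcoxon test gave 0, with 1498 genes at an unadjusted p below 0.05. Its smallest p, 0.0159, is the lowest that 5 and 4 libraries allow, and its smallest adjusted p was 0.151. Its count of 0 therefore says nothing about stability. The cause of the other changes was not tested. Same-numbered libraries did not deviate together (r from -0.14 to 0.19), so the numbers were not taken as pairs. The planned count-model tests were not run. The counting error of these genes was at most 2.13% a library if reads are independent, and the standard errors of their differences ran from 0.05 to 0.12 log2.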
